A study of Mus musculus with 59 samples.

Results

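Purkinje cell genes are described here in mice with an expanded Atxn1 allele: 26 genes listed as enriched in cerebellar Purkinje cells, out of 54232 mouse genes counted. The 26 are named as Purkinje cell genes with no threshold on a measured value, but they were chosen with earlier results of these libraries known. They were measured by bulk RNA-seq of 59 libraries from 12 mice aged 10 weeks on a C57BL/6 background, with 1 library for each mouse and brain region (cerebellum, brainstem, hippocampus, striatum, and cortex). The 4 WT mice are WT-70 and WT-77 of a lower number series and WT-220 and WT-221 of a higher one. The 4 Atxn1 154Q/2Q mice, called 154Q here (154Q-69 and 154Q-71, with 154Q-75 and 154Q-76), carry an expanded CAG repeat in 1 allele of the endogenous gene and model spinocerebellar ataxia type 1. The 4 Atxn1 154Q[V591A;S602D]/2Q mice, called 154Q-AXH here (154Q-AXH-207 and 154Q-AXH-209, with 154Q-AXH-217 and 154Q-AXH-218), carry the same expanded allele with substitutions V591A and S602D in its AXH domain, made by CRISPR-Cas9, which abolish binding of ATXN1 to the transcriptional repressor Capicua (CIC). Both mutants keep 1 normal allele, and as knockins they express the expanded protein wherever Atxn1 is expressed and not in Purkinje cells alone. There were 4 libraries per region and genotype, except for 3 brainstem libraries of 154Q-AXH mice (154Q-AXH-217 was not analysed here).

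Purkinje cells are the output neurons of the cerebellar cortex. They receive glutamate from parallel and climbing fibres, and in their dendrites a Gq protein and phospholipase C make inositol trisphosphate (IP3), which opens the ITPR1 channel of intracellular calcium stores. The cells hold high levels of calcium buffers, pumps, and channels, and they degenerate in spinocerebellar ataxia type 1.

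The promoters of members that fell furthest past the test are shown first. The windows run from 250 bases before to 50 bases after a RefSeq transcript start, on GRCm38.p6, and 19 of the 26 members had a window in the RefSeq table (31 of its 32851 windows). Fam107b and Rgs8 had the lowest adjusted p in the comparison of 154Q with WT cerebellum, Calb1 and Car8 came next and have no entry, and Atp2a3 and Arhgef33 followed them. Pcp2 is shown because 1 of its 4 windows held the most motif matches, and that window was chosen after they were seen. The other windows of Pcp2 held no match. Rgs8 had 3 windows, of which the first listed is shown. The windows lie at chr2:3713208-3713507 (+ strand, at a start inside the gene's span) for Fam107b, chr1:153652787-153653086 (+) for Rgs8, chr11:72960919-72961218 (+) for Atp2a3, and chr17:80307157-80307456 (+) for Arhgef33. For Pcp2 the window lies at chr8:3625233-3625532 (− strand), wholly inside the gene's span, so its motif positions are counted from a start inside the gene. All windows are written 5′ to 3′ with motif matches in capitals.
Fam107b: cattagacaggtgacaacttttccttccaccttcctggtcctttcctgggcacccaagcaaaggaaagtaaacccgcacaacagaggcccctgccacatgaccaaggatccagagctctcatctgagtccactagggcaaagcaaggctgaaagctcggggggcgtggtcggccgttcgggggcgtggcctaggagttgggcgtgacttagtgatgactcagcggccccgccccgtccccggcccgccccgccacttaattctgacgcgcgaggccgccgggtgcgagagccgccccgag
Rgs8: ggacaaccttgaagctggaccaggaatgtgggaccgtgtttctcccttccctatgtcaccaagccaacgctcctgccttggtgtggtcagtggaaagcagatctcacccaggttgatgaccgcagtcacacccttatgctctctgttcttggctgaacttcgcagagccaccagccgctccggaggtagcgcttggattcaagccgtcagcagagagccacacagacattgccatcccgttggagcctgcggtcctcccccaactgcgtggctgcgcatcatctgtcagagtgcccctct
Atp2a3: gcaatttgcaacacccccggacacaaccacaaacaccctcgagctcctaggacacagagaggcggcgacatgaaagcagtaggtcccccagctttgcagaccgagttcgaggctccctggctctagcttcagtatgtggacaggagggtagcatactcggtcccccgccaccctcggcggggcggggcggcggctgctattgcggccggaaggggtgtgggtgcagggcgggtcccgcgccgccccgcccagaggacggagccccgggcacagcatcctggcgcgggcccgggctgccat
Arhgef33: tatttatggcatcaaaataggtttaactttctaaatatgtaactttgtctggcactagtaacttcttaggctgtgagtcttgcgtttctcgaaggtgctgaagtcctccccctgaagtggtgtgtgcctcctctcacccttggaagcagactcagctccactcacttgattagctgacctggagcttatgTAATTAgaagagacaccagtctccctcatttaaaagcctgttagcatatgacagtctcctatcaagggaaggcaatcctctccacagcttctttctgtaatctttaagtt
Pcp2: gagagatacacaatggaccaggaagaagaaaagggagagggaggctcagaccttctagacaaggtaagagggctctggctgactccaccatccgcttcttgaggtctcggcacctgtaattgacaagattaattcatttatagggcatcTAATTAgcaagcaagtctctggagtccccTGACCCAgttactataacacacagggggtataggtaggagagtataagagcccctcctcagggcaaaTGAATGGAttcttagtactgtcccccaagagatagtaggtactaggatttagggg

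Of the motifs searched on both strands, the CIC octamer (TGAATGAA or TGAATGGA) stood in 1 member window, against 2.47% of all windows in the table. That match was in the printed window of Pcp2 (TGAATGGA, 5 bases before the start). The ROR half-site (TAGGTCA or TGGGTCA), which RORA binds, stood in windows of Atp2b2, Gng13, and Pcp2 (in Pcp2 as TGACCCA on the written strand, 72 bases before the start), against 6.45% of all windows. The LIM homeobox core TAATTA stood in windows of Arhgef33 (60 bases before the start) and Pcp2 (101 bases before), against 5.29%. The palindromic EBF site stood in no member window, against 0.904% of all. The 4 other windows printed with Pcp2 thus held 1 match, the TAATTA of Arhgef33. These are matches of letters in 1 window per start, and binding was not measured in these libraries.

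The counted read pairs per library came to 64.4 M to 106 M in the cerebellum, 75.4 M to 112 M in the brainstem, 69.5 M to 107 M in the hippocampus, 28.1 M to 54.7 M in the striatum, and 34.5 M to 46.2 M in the cortex. Levels are given as CPM (counts per 1 M of the TMM-scaled library size), and log2 fold changes and p values come from quasi-likelihood tests in edgeR, adjusted by Benjamini-Hochberg over all genes tested, with "fell" and "rose" for adjusted p under 0.05. As a check of the targeted gene, cerebellar Atxn1 stood at 44.3 to 59.6 CPM in WT, 47 to 58 CPM in 154Q, and 50.3 to 58.7 CPM in 154Q-AXH libraries, which does not show the repeat or the substitutions. Some libraries went against their labels or stood apart. The file names of 2 cortical libraries (labelled 154Q-76 and 154Q-AXH-207) disagree with their labels, which were used. The hippocampal library labelled 154Q-76 held both Xist (187 CPM) and Ddx3y (53.8 CPM), and the cortical library labelled WT-221 held Xist at 470 CPM, unlike that mouse's other libraries. The mice 154Q-75 and 154Q-AXH-217 held Xist at 1160 and 1060 CPM in the cerebellum, and no WT mouse there held over 2.68 CPM. Cortical WT-77 held the cerebellar granule cell gene Gabra6 at 5.64 CPM, against at most 1.75 CPM in the other cortical libraries. All 154Q mice have numbers in a lower series and all 154Q-AXH mice in a higher one, with 2 WT mice in each, so the mutant genotype and the series cannot be told apart without the WT mice.

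In WT mice, all 26 members were higher in the cerebellum than in the mean of the other 4 regions (edgeR adjusted p from 2.65e-22 for Lhx5 to 0.0259 for Pcp4), where 37.2% of all 22200 genes tested were called higher. The median log2 difference was 3.66. Apart from the transcriptional corepressor Skor2, the difference was largest for Ppp1r17, an inhibitor of protein phosphatases (8.43), and Pcp2, a modulator of G proteins (7.72), and smallest for the plasma membrane calcium pump Atp2b2 (0.58). Skor2 had 986 to 1361 counts in WT cerebellar libraries, at most 2 in hippocampal, at most 4 in cortical, and 0 in all striatal WT libraries, so its fitted fold depends on the prior count and is not given.

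**Figure D1:**
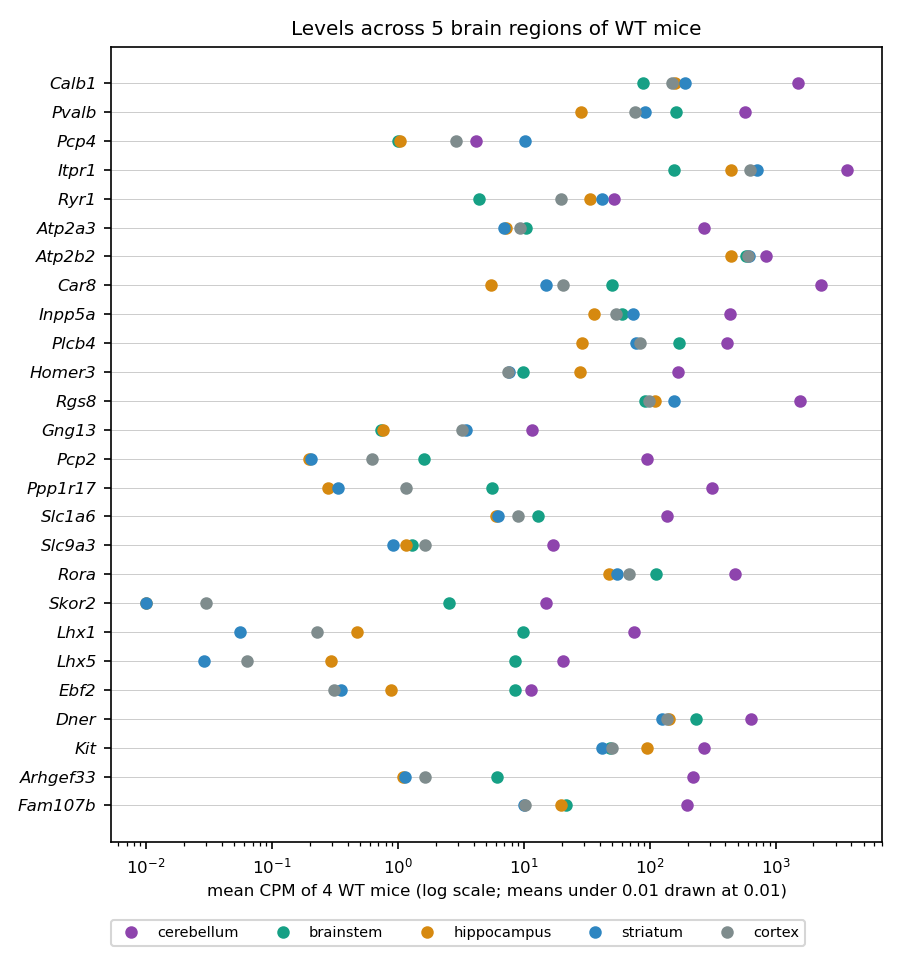
Mean CPM of each gene (log scale) in 5 brain regions of 4 WT mice, scaled over all 20 WT libraries, with means under 0.01 drawn at 0.01. The cerebellar mean is the highest for 25 of the 26 genes, and for Pcp4 the striatal mean (10.2) lies above the cerebellar mean (4.15).

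Several members were not particular to the cerebellum. Pcp4, a calmodulin regulator, was lower in WT cerebellum than in striatum (4.15 ± 2.62 against 10.2 ± 7.61 CPM, mean ± SD, n = 4; log2 difference −1.37, edgeR adjusted p = 0.00224), where 35.9% of all genes were called lower, and did not pass the test against the cortex (0.51, adjusted p = 0.287). The call of Pcp4 against the mean of the other regions was lost without WT-70, WT-77, or WT-221. Ebf2, a transcription factor, stood at 11.3 ± 1.22 CPM in the cerebellum and 8.51 ± 2.17 CPM in the brainstem (adjusted p = 0.241), and Ryr1, a calcium release channel, at 52.5 ± 4.9 CPM in the cerebellum and 42 ± 7.58 CPM in the striatum (adjusted p = 0.0814). Against single regions, 25 members were higher than in the brainstem, 26 than in the hippocampus, 24 than in the striatum, and 25 than in the cortex. The share of all genes called higher was counted only against the mean of the other regions (37.2%), so these counts have no such share beside them.

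Per kilobase of exon, the members of WT cerebellum ranged from Ebf2 (1.70 CPM per kb) and Ryr1 (2.5) to the calcium buffer Pvalb (567) and Car8 (619), an inhibitor of IP3 binding to ITPR1. The calcium buffer Calb1 stood at 322 CPM per kb, above Itpr1. Between the 4 WT mice, Calb1 was the most even member (coefficient of variation 2.82%), and Gng13, a G protein gamma subunit (73.6%), Pcp4 (63.9%), and Pcp2 (37.3%) varied most.

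In the cerebellum of 154Q mice, 17 of the 26 members fell, and none rose, where 3.12% of all 20874 genes tested fell and 2.1% rose. All 26 log2 fold changes lay below 0, with a median of −0.325 against 0.001 over all genes tested. An unadjusted edgeR p under 0.05 was found for 22 members and for 3750 of the 20874 genes. The summed level of the members was 14000 to 15600 CPM in WT libraries (median 14900), 11300 to 12000 CPM in 154Q libraries (median 11800), and 12300 to 13100 CPM in 154Q-AXH libraries (median 12800). Each group's range thus lay apart from the others. In 154Q-AXH mice 8 members fell and none rose, where 1.13% of all genes fell and 1.08% rose, and all 26 log2 fold changes again lay below 0 (median −0.229, against −0.007 over all genes). The number called in 154Q-AXH mice moved with the setting, to 15 with DESeq2 and 13 with the number series added as a covariate. Those settings also called more of all genes, 1057 and 1475, against 236 that fell and 226 that rose in the main fit. The comparisons with WT share the WT libraries, so the mutant values are given side by side. In bulk tissue, fewer Purkinje cells and less RNA of these genes per cell cannot be told apart.

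**Figure D2:**
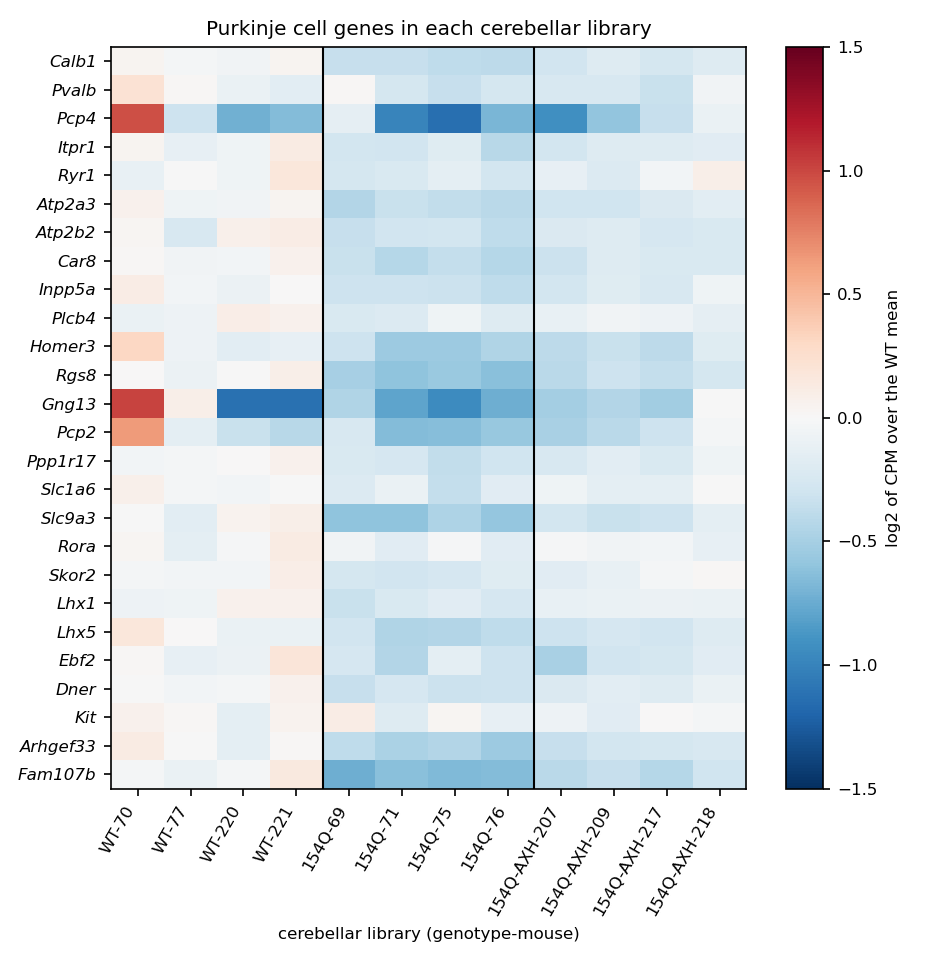
Each of the 26 genes in each of the 12 cerebellar libraries, as log2 of CPM over the mean of 4 WT libraries, with lines between the genotypes. The 154Q columns are blue for nearly all genes (library medians −0.276 to −0.375), the 154Q-AXH columns are paler (−0.127 to −0.269), and Pcp4, Gng13, and Pcp2 stand high in WT-70.

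In every library of the mutants, most members lay below the WT mean. Counted per library, 23 to 26 members were below it in 154Q mice and 21 to 26 in 154Q-AXH mice, against 7 in WT-70, 22 in WT-77, 21 in WT-220, and 7 in WT-221. The median member of a WT library was −0.056 to 0.066 from the WT mean on the log2 scale, so the mutant libraries were all outside the WT range. For 19 members all 4 154Q libraries lay below all 4 WT libraries, as they did for 5.38% of all genes tested, and the 19 are the 17 called members with Ryr1 and Ebf2. For 13 members all 154Q-AXH libraries lay below all WT libraries (4.14% of all genes).

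Among the calcium buffers, Calb1 stood at 1600, 1530, 1510, and 1600 CPM in WT, at 1230, 1230, 1200, and 1190 CPM in 154Q, and at 1280, 1360, 1300, and 1360 CPM in 154Q-AXH libraries, with the mice of a genotype in rising order of their numbers here and in the sentences that follow. Every WT library was above every mutant library, and every 154Q-AXH library above every 154Q library. Calb1 fell in 154Q mice by 0.36 on the log2 scale (SE 0.0343, edgeR adjusted p = 2.06e-05) and in 154Q-AXH mice by 0.24 (SE 0.0343, adjusted p = 0.0026). Pvalb, which interneurons of the molecular layer also express, stood at 684, 597, 553, and 527 CPM in WT, 597, 491, 466, and 492 CPM in 154Q, and 498, 498, 470, and 569 CPM in 154Q-AXH libraries, and these ranges overlapped. Its log2 fold changes of −0.21 in both mutants did not pass the test (edgeR adjusted p = 0.231 in 154Q and 0.263 in 154Q-AXH mice). Pcp4 was low, at 8.45, 3.49, 2.64, and 2.77 CPM in WT against 1.98 to 3.96 CPM in 154Q and 2.3 to 4.05 CPM in 154Q-AXH libraries, and only WT-70 stood apart.

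Of the genes of calcium stores and pumps, Itpr1, the IP3 receptor, stood at 3960, 3530, 3670, and 4190 CPM in WT, 3160, 3140, 3380, and 2870 CPM in 154Q, and 3180, 3350, 3360, and 3410 CPM in 154Q-AXH libraries. Both mutant ranges were below the WT range and overlapped each other. Itpr1 fell in 154Q mice (log2 fold change −0.29, SE 0.0574, edgeR adjusted p = 0.00765), and in 154Q-AXH mice the value of −0.21 had an adjusted p of 0.0835. Car8 stood at 2410, 2310, 2330, and 2500 CPM in WT, 1900, 1770, 1860, and 1770 CPM in 154Q, and 1910, 2080, 2030, and 2040 CPM in 154Q-AXH libraries, 3 ranges that did not overlap. Car8 fell in both mutants, by 0.39 in 154Q (edgeR adjusted p = 5.49e-05) and by 0.25 in 154Q-AXH mice (adjusted p = 0.00574). Atp2a3, a pump that refills the calcium stores, stood at 291, 266, 269, and 287 CPM in WT, 205.5, 220.8, 215.6, and 209.6 CPM in 154Q, and 227, 227, 239, and 250 CPM in 154Q-AXH libraries, again with no overlap. It fell by 0.39 (adjusted p = 9.25e-05) and 0.24 (adjusted p = 0.0105) in edgeR's test. Atp2b2 fell in 154Q mice by 0.32 (665 to 714 CPM against 730 to 933 CPM in WT, edgeR adjusted p = 0.00558), as did Inpp5a, a phosphatase that removes IP3, by 0.33 (348 to 366 against 427 to 490 CPM, adjusted p = 0.00115), and neither passed the test in 154Q-AXH mice (adjusted p = 0.0783 and 0.0669). Ryr1 had 45.2 to 49.5 CPM in 154Q and 50.4 to 61.3 CPM in WT libraries and missed the threshold (−0.23, edgeR adjusted p = 0.0715).

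Of the genes of G protein signalling, Rgs8, a regulator that shortens G protein signalling, stood at 1620, 1520, 1610, and 1710 CPM in WT, 1140, 1060, 1100, and 1050 CPM in 154Q, and 1220, 1300, 1260, and 1340 CPM in 154Q-AXH libraries. The 3 groups did not overlap, and 154Q-AXH libraries lay between the others. Rgs8 fell by 0.57 in 154Q mice (SE 0.0436, 32.7% lower, edgeR adjusted p = 3.86e-06) and by 0.34 in 154Q-AXH mice (SE 0.0435, 21% lower, adjusted p = 0.00113). Homer3, a postsynaptic scaffold that binds ITPR1, stood at 217.7, 166, 157, and 161 CPM in WT, 141, 120, 120, and 128 CPM in 154Q, and 134, 139, 134, and 155 CPM in 154Q-AXH libraries, with WT-70 the highest. Homer3 fell in 154Q mice (log2 fold change −0.47, SE 0.092, edgeR adjusted p = 0.00761) and not past the threshold in 154Q-AXH mice (−0.32, adjusted p = 0.093). Ppp1r17 is a phosphatase inhibitor rather than a G protein gene. It fell in 154Q mice by 0.28 (251 to 275 against 314 to 338 CPM, edgeR adjusted p = 0.00144), with 274 to 308 CPM in 154Q-AXH libraries (adjusted p = 0.0607). Plcb4, a phospholipase C downstream of Gq, had a value of −0.17 in 154Q mice (adjusted p = 0.0651) and ranges that overlapped.

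Pcp2 and Gng13 depended on WT-70. Pcp2 stood at 155, 90.3, 79.4, and 74.9 CPM in WT, 84.3, 63.7, 64.3, and 67.1 CPM in 154Q, and 71.6, 75.7, 80.7, and 97.8 CPM in 154Q-AXH libraries. Gng13 stood at 24.7, 13, 5.63, and 5.63 CPM in WT, 8.96, 7.09, 6.38, and 7.39 CPM in 154Q, and 8.61, 9.02, 8.52, and 12.2 CPM in 154Q-AXH libraries. In both genes the WT-70 library was far above the others and the genotypes overlapped. Counts were taken without regard to strand, and these genes overlap Pet100 and Chtf18 on the opposite strand. Reads in any stretch shared with such a partner cannot be assigned by strand, and their part in these levels was not tested. Their log2 fold changes in 154Q mice, −0.51 and −0.70, and that of Pcp4, −0.65, did not pass the test (edgeR adjusted p = 0.147, 0.343, and 0.347), and without WT-70 they were −0.22, −0.12, and −0.14. With the number series as a covariate they were −0.81, −1.325, and −1.109 (edgeR adjusted p = 0.012, 0.00144, and 0.0618). The median log2 offset of 392 protein-coding genes with under 1000 exon bases, none of them members, moved with the levels of Pcp2 and Gng13 in WT libraries. It was 0.203 in WT-70, 0.082 in WT-77, −0.102 in WT-220, and −0.18 in WT-221, against −0.034 to 0.105 in the mutants. With that offset as a covariate, an alternative added after the data were seen, Pcp2 (−0.59, adjusted p = 0.0011), Gng13 (−0.72, adjusted p = 0.00101), Pcp4 (−0.76, adjusted p = 0.0203), Pvalb (−0.26, adjusted p = 0.00954), and Plcb4 (−0.14, adjusted p = 0.0116) joined the called members in 154Q mice, 22 in all, in edgeR's test. That setting called 1653 of all genes.

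Of the transporters, Slc9a3, a sodium-hydrogen exchanger, stood at 17.7, 15.9, 18.4, and 18.9 CPM in WT, 11.7, 11.7, 12.9, and 11.9 CPM in 154Q, and 14.6, 14.1, 14.3, and 16 CPM in 154Q-AXH libraries. The 154Q range was below both other ranges, and 154Q-AXH-218 reached above WT-77. Slc9a3 fell by 0.56 in 154Q (SE 0.065, edgeR adjusted p = 0.000139) and by 0.26 in 154Q-AXH mice (SE 0.0641, adjusted p = 0.0477), and the latter call was lost without any of 10 of the 12 libraries. Slc1a6, the glutamate transporter EAAT4 of Purkinje cells, stood at 150, 140, 138, and 142 CPM in WT, 124, 133, 111, and 127 CPM in 154Q, and 136, 129, 129, and 142 CPM in 154Q-AXH libraries. It fell in 154Q mice by 0.21 (SE 0.0527, adjusted p = 0.0357), a call that was lost without WT-70, WT-221, 154Q-69, 154Q-75, or 154Q-76 (edgeR adjusted p 0.0555 to 0.0839).

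Of the transcription regulators, Lhx1 and Lhx5, LIM homeobox factors of Purkinje cell development, fell in 154Q mice by 0.24 and 0.38 (edgeR adjusted p = 0.00475 and 0.00262), with 61.6 to 68.9 CPM of Lhx1 against 73.9 to 81.4 CPM in WT and 15.6 to 17.6 CPM of Lhx5 against 20 to 24.1 CPM. Skor2 fell in 154Q mice by 0.25 (12.8 to 13.7 against 15.2 to 16.7 CPM, adjusted p = 0.0178), a call lost without WT-221 (adjusted p = 0.0595) or 154Q-71 (adjusted p = 0.0561). None of the 3 passed the test in 154Q-AXH mice (edgeR adjusted p = 0.303, 0.053, and 0.625). Ebf2 had −0.28 in 154Q (adjusted p = 0.0888) and −0.29 in 154Q-AXH mice (adjusted p = 0.11), with both mutant ranges below the WT range. Rora, the nuclear receptor whose loss arrests Purkinje cell maturation, stood at 503, 443, 486, and 533 CPM in WT, 474, 438, 486, and 438 CPM in 154Q, and 485, 475, 476, and 451 CPM in 154Q-AXH libraries. The ranges of Rora overlapped, and its log2 fold changes were −0.10 (95% interval −0.20 to 0.01, edgeR adjusted p = 0.37) and −0.06 (−0.16 to 0.05, adjusted p = 0.687).

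Of the remaining genes, Fam107b, which encodes a protein of uncertain function, stood at 201, 191, 201, and 227 CPM in WT, 123, 133, 130, and 131 CPM in 154Q, and 155, 161, 153, and 167 CPM in 154Q-AXH libraries. The 3 groups did not overlap. Fam107b had the lowest adjusted p of the members, falling by 0.67 in 154Q mice (SE 0.0507, 37% lower, edgeR adjusted p = 3.82e-06) and by 0.37 in 154Q-AXH mice (SE 0.0505, 22.5% lower, adjusted p = 0.00174). Arhgef33, a guanine nucleotide exchange factor, stood at 252, 230, 209.3, and 233 CPM in WT, 177, 166, 170, and 158 CPM in 154Q, and 182, 191, 192, and 196 CPM in 154Q-AXH libraries, with no overlap, and fell by 0.46 (adjusted p = 0.000109) and 0.28 (adjusted p = 0.0125). Dner, a Notch ligand through which Purkinje cells act on Bergmann glia, fell by 0.31 in 154Q (519 to 556 against 644 to 693 CPM in WT, edgeR adjusted p = 0.00021) and by 0.17 in 154Q-AXH mice (569 to 619 CPM, adjusted p = 0.0354), the latter call being lost without any of 7 of the 12 libraries (adjusted p 0.0506 to 0.137). In 154Q-AXH mice, leaving out 154Q-AXH-207 or 154Q-AXH-209 reduced the 8 calls to 4, with those of Dner, Arhgef33, Atp2a3, and Slc9a3 lost. Kit, the receptor for the Purkinje cell ligand KITL on molecular layer interneurons, stood at 295, 287, 255, and 294 CPM in WT, 306, 247, 288, and 259 CPM in 154Q, and 269, 251, 284, and 277 CPM in 154Q-AXH libraries. These values overlapped, with log2 fold changes of −0.04 (95% interval −0.17 to 0.09, edgeR adjusted p = 0.837) and −0.06 (−0.20 to 0.07, adjusted p = 0.724).

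**Figure D3:**
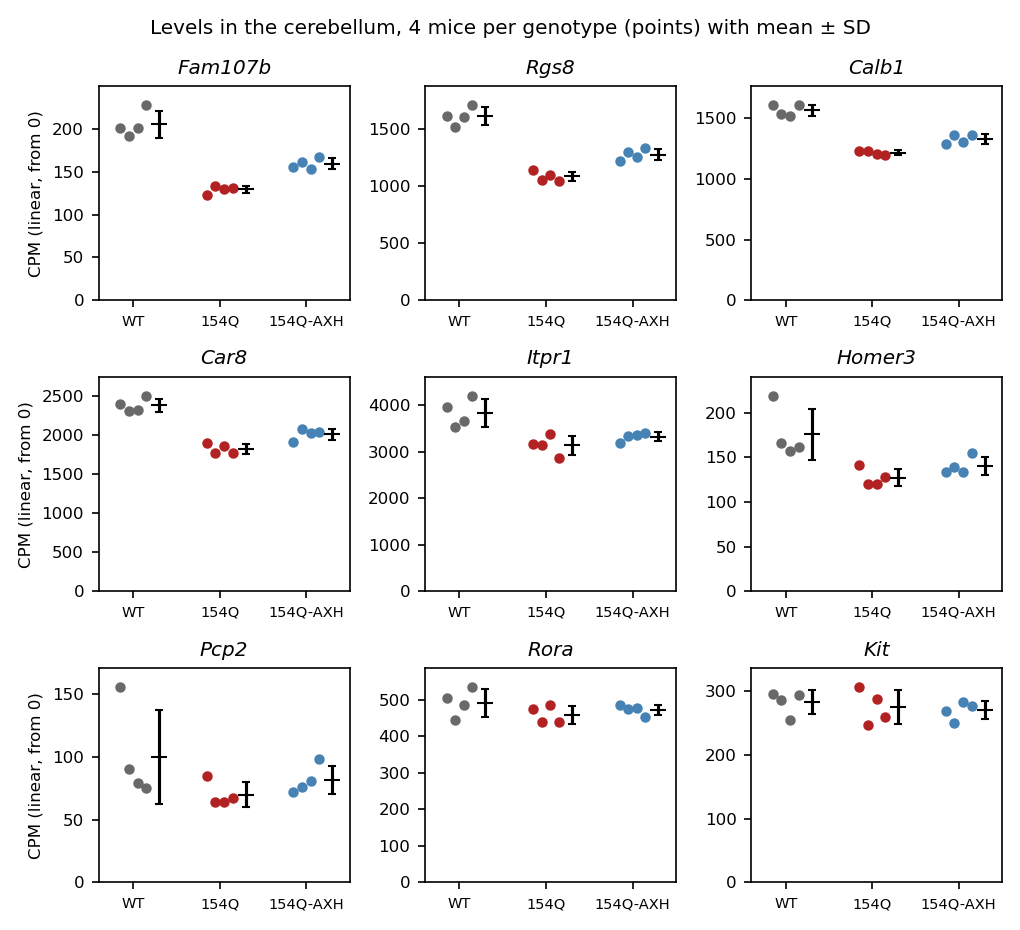
CPM of 9 genes in the cerebellum on linear axes from 0, with 1 point per mouse and the mean ± SD of 4 mice per genotype. Fam107b (205 ± 15.3 CPM in WT, 129 ± 4.53 in 154Q, and 159 ± 6.39 in 154Q-AXH), Rgs8, Calb1, and Car8 show 3 separate groups, whereas Rora and Kit overlap and Pcp2 has 1 high WT point (155 CPM).

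The direct comparison of 154Q-AXH with 154Q cerebellum asks whether the members differed once the expanded protein could not bind CIC. None of the 26 members passed edgeR's test, where 0.0287% of all genes were called higher (6 genes) and 0.00479% lower (1 gene). Of the 26, 14 had an unadjusted p under 0.05, as did 1586 of all 20874 genes tested. Above 0 lay 23 log2 fold changes (median 0.141, against −0.006 over all genes). The values were 0.30 for Fam107b (95% interval 0.20 to 0.40, adjusted p = 0.0566), 0.23 for Rgs8 (0.15 to 0.32, adjusted p = 0.104), and 0.29 for Slc9a3 (0.16 to 0.42, adjusted p = 0.183). DESeq2 called 4 members higher (Calb1, Rgs8, Slc9a3, and Fam107b), and 124 genes in all either way. For 12 members all 154Q-AXH libraries lay above all 154Q libraries, as they did for 3.61% of all genes. The 12 were Calb1, Car8, Rgs8, Inpp5a, Dner, Atp2a3, Atp2b2, Arhgef33, Skor2, Lhx1, Slc9a3, and Fam107b. Pvalb (−0.01), Ebf2 (−0.01), and Kit (−0.03) were the 3 below 0. The number series differs with the genotype in all of these libraries. With the series as a covariate only Gng13 was called among the members (2.09, edgeR adjusted p = 0.0248), with 80 genes called in all.

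**Figure D4:**
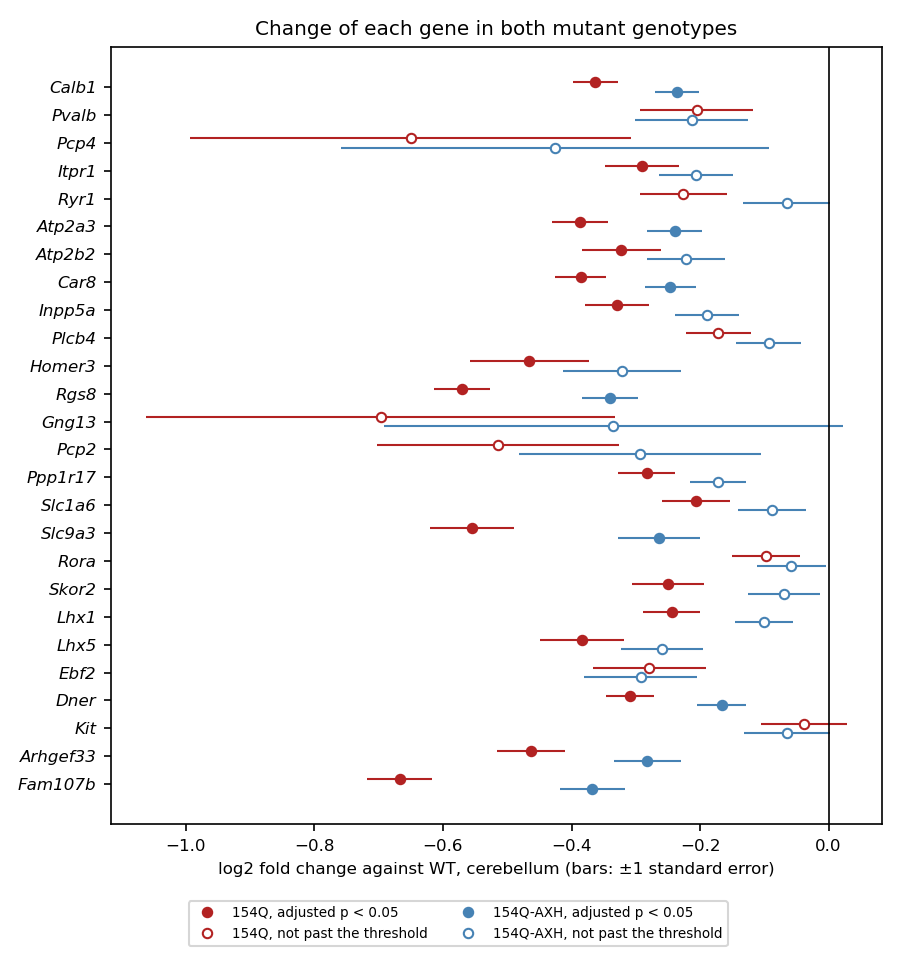
Log2 fold change of each gene against WT in the cerebellum of 154Q (red) and 154Q-AXH mice (blue), with bars of 1 standard error and filled points for adjusted p under 0.05. All 52 points lie below 0, 17 red and 8 blue points are filled, and the bars of Pcp4, Gng13, and Pcp2 are the longest.

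Other genes of Purkinje cells were measured in the comparison of 154Q with WT cerebellum, where 3.12% of all genes tested fell. Of 18 partners of Gq and calcium signalling, 10 fell, none rose, and 8 did not pass the test, 2 of them with values above 0 (median log2 fold change −0.251). Plcb3, a phospholipase C, had the lowest adjusted p (−0.83, SE 0.0499, edgeR adjusted p = 4.58e-07), and Kcnma1, a calcium-activated potassium channel, also fell (−0.37, adjusted p = 0.00162). The G protein gene Gnaq had −0.11 (edgeR adjusted p = 0.278). Of 13 further Purkinje cell genes 7 fell, none rose, and 6 did not pass, again 2 of them with values above 0 (median −0.238). The 7 that fell included Doc2b (log2 fold change −0.42, edgeR adjusted p = 1.5e-05), Pde5a (−0.46, adjusted p = 0.000583), and Kitl (−0.33, adjusted p = 0.000809). In 154Q-AXH mice, compared with WT, 5 of the 18 and 4 of the 13 fell, where 1.13% of all genes did. Between the mutants Plcb3 was the only gene of these lists that passed the test (0.43 higher in 154Q-AXH mice, edgeR adjusted p = 0.00473).

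Markers of other cerebellar cells were measured in the same libraries. The summed level of 8 granule cell genes was 6140 to 7180 CPM in WT, 5850 to 6110 CPM in 154Q, and 6330 to 6650 CPM in 154Q-AXH libraries, and 2 of the 8 fell in 154Q mice (Neurod1, −0.21, edgeR adjusted p = 0.00834, and Cbln1, −0.24, adjusted p = 0.0132). Of 6 astrocyte and Bergmann glia genes Gdf10 fell in both mutants (−0.42, adjusted p = 0.00115, and −0.38, adjusted p = 0.00646), and the summed level of the list was 2540 to 2800 CPM in WT, 2310 to 2440 CPM in 154Q, and 2440 to 2560 CPM in 154Q-AXH libraries. None of 6 molecular layer interneuron and Golgi cell genes was called in either mutant (299 to 323, 305 to 323, and 307 to 328 CPM), and the same held for 6 oligodendrocyte genes (6210 to 7370, 5950 to 6700, and 5240 to 6510 CPM), 5 microglial genes (71.9 to 85.1, 77.1 to 88.1, and 72 to 76.9 CPM), and 3 endothelial genes (89 to 98.6, 78.9 to 101, and 84.7 to 93 CPM). The 5 choroid plexus genes ranged from 24.9 to 2930 CPM in WT, 20.2 to 2690 CPM in 154Q, and 24.4 to 1670 CPM in 154Q-AXH libraries. With the choroid plexus gene Ttr as a covariate, 18 members were called in 154Q and 10 in 154Q-AXH mice, where 1332 and 584 of all genes were called. Between the mutants, all 8 granule cell log2 fold changes lay above 0 (median 0.119), 5 with an unadjusted edgeR p under 0.05. In 154Q mice, 7 of these 8 genes lay below 0, 4 with such a p. All 6 astrocyte and Bergmann glia genes also did, 4 with such a p. All 6 oligodendrocyte genes lay below 0 in both mutants, 1 (154Q) and 4 (154Q-AXH) with such a p. Of the 6 interneuron and Golgi cell genes, 3 lay below 0 in each mutant. The part of the other cell types in the members' change was not tested.

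Outside the cerebellum fewer members were called, and between the mutants none was called in any of the 4 other regions by edgeR or by DESeq2 (9 in the hippocampus, 2 in the cortex, 1 in the striatum, and 0 in the brainstem had an unadjusted edgeR p under 0.05). Over all genes, 2356 of 21454, 1241 of 18610, 601 of 18408, and 1163 of 21754 had such a p, with the regions in that order. In the brainstem none of the 26 members was called in 154Q mice (0.538% of all genes) or in 154Q-AXH mice (0.0138% of all genes) by edgeR, nor by DESeq2. An unadjusted edgeR p under 0.05 was found for 2 and 0 members, and for 2367 and 1465 of the 21754 genes tested. The median log2 fold changes of the members were −0.057 and −0.029. The brainstem libraries differed in genes that are high in the cerebellum. Gabra6 ranged from 4.73 CPM (154Q-AXH-207) to 65.3 CPM (154Q-AXH-209), against 876 to 1120 CPM in the cerebellum, and Pcp2 from 0.425 CPM (154Q-71) to 4.25 CPM (154Q-AXH-209). Ppp1r17 (2.07 to 14.9 CPM) and Car8 (22.5 to 109 CPM) were also highest in 154Q-AXH-209, and the source of these reads and their part in the brainstem values were not tested.

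In the hippocampus 25 members were tested (Skor2 was too low). Homer3 and Rgs8 fell in 154Q mice and Homer3 in 154Q-AXH mice, where 5.91% and 1.3% of all genes were called, and the members' median log2 fold changes were 0.061 and −0.019. Homer3 stood at 23.3, 29.8, 29.2, and 32.1 CPM in WT, 11.5, 14, 12.1, and 9.78 CPM in 154Q, and 14, 16, 12.6, and 22 CPM in 154Q-AXH libraries. All mutant libraries were below all WT libraries, with log2 fold changes of −1.27 (SE 0.166, edgeR adjusted p = 0.0015) and −0.83 (SE 0.164, adjusted p = 0.0311). The 154Q-AXH call was lost without WT-77, WT-220, WT-221, 154Q-AXH-207, 154Q-AXH-209, or 154Q-AXH-217 (adjusted p 0.0635 to 0.0891). Rgs8 stood at 106, 101, 121, and 125 CPM in WT, 81.2, 85.1, 99, and 87.4 CPM in 154Q, and 82.6, 88.9, 89.1, and 100 CPM in 154Q-AXH libraries, with all mutant libraries lower than WT and a log2 fold change in 154Q mice of −0.36 (edgeR adjusted p = 0.0275). That call was lost without WT-220, WT-221, 154Q-69, or 154Q-71 (adjusted p 0.062 to 0.0752). The library labelled 154Q-76 stood apart in Lhx1 (5.11 CPM), Lhx5 (5.03), Ebf2 (5.3), and Pvalb (75.2), against at most 1.02, 0.671, 1.77, and 30.9 CPM elsewhere. Without it Homer3 fell by 1.20 (adjusted p = 0.00202) and Rgs8 by 0.37 (adjusted p = 0.0392) in edgeR's test.

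In the striatum 22 members were tested, and Pcp2, Lhx1, Lhx5, and Skor2 were too low. In 154Q mice 4 fell, Ryr1, Itpr1, Pcp4, and Inpp5a, and in 154Q-AXH mice Ryr1 did, where 5.69% and 1.35% of all genes were called (members' median log2 fold changes −0.173 and −0.117). Ryr1 stood at 44.9, 37.5, 50.1, and 34.4 CPM in WT, 11.4, 9.23, 10.8, and 9.4 CPM in 154Q, and 8.2, 13.5, 17.4, and 9.4 CPM in 154Q-AXH libraries. Every WT library was above every mutant library, and the log2 fold changes were −2.03 (SE 0.205, edgeR adjusted p = 0.000214) and −1.78 (SE 0.205, adjusted p = 0.00101). Itpr1 stood at 733, 697, 624, and 788 CPM in WT, 507, 452, 564, and 534 CPM in 154Q, and 473, 574, 593, and 464 CPM in 154Q-AXH libraries, again with all mutant libraries lower (154Q −0.47, adjusted p = 0.0244, and 154Q-AXH −0.43, adjusted p = 0.0707). Pcp4 had 1 high WT library, WT-220 (21.1 CPM, against 5.66 to 7.31 CPM in the other WT and 2.88 to 3.79 CPM in 154Q libraries), and a log2 fold change of −1.59 (edgeR adjusted p = 0.0369). Striatal WT-220 and 154Q-AXH-217 also stood apart from all other striatal libraries in several members. They were low in Plcb4 (43 and 34 CPM, against 60.9 to 95.2 CPM) and Dner (92.7 and 77.2 CPM, against 124 to 150 CPM). They were low in Rora (36.8 and 37.6 CPM) and high in Rgs8 (212 and 213 CPM, against 72.5 to 150 CPM). The reason was not tested. Inpp5a had −0.34 (edgeR adjusted p = 0.0419), a call lost without any of 9 of the 12 libraries (adjusted p 0.0505 to 0.121). The Itpr1 call was lost without any of 4 and the Pcp4 call without any of 5. Leaving out 154Q-69 or 154Q-71 reduced the 4 calls to 1, that of Ryr1, and leaving out 154Q-75, 154Q-76, or 154Q-AXH-209 reduced them to 2. Without WT-220 the 154Q-AXH calls were 3 in place of 1, and without 154Q-AXH-217 they were 2.

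In the cortex 23 members were tested, and Lhx1, Lhx5, and Skor2 were too low. In 154Q mice Rgs8, Atp2b2, Pvalb, Homer3, and Pcp4 fell and Slc1a6 rose, and in 154Q-AXH mice Rgs8, Atp2b2, Pcp4, and Ryr1 fell, where 11.1% and 7.15% of all genes were called. The members' median log2 fold changes were −0.302 and −0.297, against 0.009 and 0.002 over all genes tested. Rgs8 stood at 103, 104, 92.4, and 95 CPM in WT, 58.6, 56.7, 50, and 59.6 CPM in 154Q, and 54.7, 61.9, 56.1, and 66 CPM in 154Q-AXH libraries. No mutant library reached the WT range, and the log2 fold changes were −0.81 (SE 0.0696, edgeR adjusted p = 7.02e-06) and −0.72 (SE 0.0695, adjusted p = 2.51e-05). Atp2b2 stood at 691, 509, 564, and 637 CPM in WT, 425, 424, 408, and 444 CPM in 154Q, and 404, 408, 539, and 425 CPM in 154Q-AXH libraries, with overlap only of 154Q-AXH-217 and the WT range (−0.50, adjusted p = 0.0037, and −0.44, adjusted p = 0.0116). Slc1a6 stood at 7.8, 10.1, 9.7, and 8.09 CPM in WT, 13.4, 12.4, 12.1, and 11.9 CPM in 154Q, and 12.1, 9.98, 11, and 11.5 CPM in 154Q-AXH libraries. All 154Q libraries were above all WT libraries (0.47, edgeR adjusted p = 0.00367), and the 154Q-AXH value was 0.32 (adjusted p = 0.0503). Pvalb, a marker of fast-spiking cortical interneurons, stood at 72.2 to 81.6 CPM in WT, 43.5 to 63.8 CPM in 154Q, and 53.1 to 76.9 CPM in 154Q-AXH libraries (−0.58, adjusted p = 0.00606, and −0.32, adjusted p = 0.131).

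Homer3 (−0.48, edgeR adjusted p = 0.0295) and Pcp4 (−0.56, adjusted p = 0.0328) in 154Q cortex, and Pcp4 (−0.62, adjusted p = 0.0304) and Ryr1 (−0.90, adjusted p = 0.0354) in 154Q-AXH cortex, were less stable. Their calls were lost without any of 5, 7, 7, and 6 of the 12 libraries, in that order. With the counts of 1 strand the cortical value of Homer3 in 154Q mice was −0.24 (edgeR adjusted p = 0.124). Homer3 overlaps Ddx49 on the opposite strand. The libraries are unstranded, so the counts of 1 strand cannot separate reads of Homer3 from those of Ddx49. With the 2 cortical libraries of disputed label left out, the edgeR adjusted p of Homer3 in 154Q cortex was 0.0557, and in 154Q-AXH cortex Atp2b2 (0.058), Pcp4 (0.13), and Ryr1 (0.106) lost their calls. With the same libraries exchanged, Homer3 in 154Q (0.146) and Pcp4 in 154Q-AXH cortex (0.0643) lost theirs. Without WT-70, WT-221, or 154Q-AXH-218 the 4 calls in 154Q-AXH cortex were 2. Pcp2 and Ppp1r17 stood at 1.9 and 3.9 CPM in cortical WT-77, the library with Gabra6, and at most 0.453 and 0.566 CPM in the other cortical libraries, and their large negative values in the cortex (−1.36 and −2.27 in 154Q mice) did not pass the test (edgeR adjusted p = 0.303 and 0.171).

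**Figure D5:**
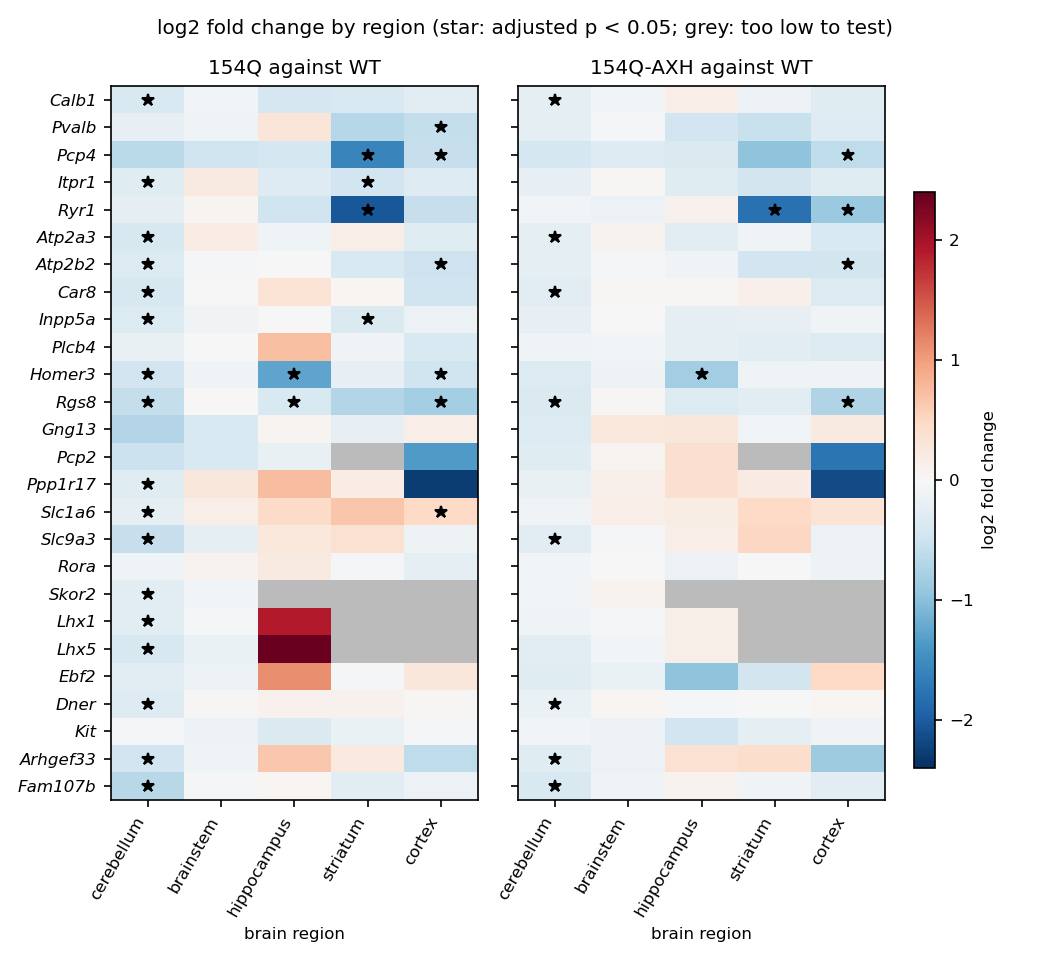
Log2 fold change of each gene against WT in 5 regions, for 154Q (left) and 154Q-AXH mice (right), with stars for adjusted p under 0.05 and grey for genes too low to test. The cerebellar column holds 17 stars in 154Q and 8 in 154Q-AXH mice, the brainstem columns none, and the strongest starred change outside the cerebellum is striatal Ryr1 (−2.03 and −1.78).

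The difference between the cerebellar effect and the mean effect of the other 4 regions was tested in 1 edgeR model of all 59 libraries. In 154Q mice 2 of the 26 members passed, where 2.21% of all 24290 genes did. Fam107b fell more in the cerebellum than elsewhere (difference of log2 fold changes −0.56, SE 0.121, edgeR adjusted p = 0.00482), and its values in 154Q brainstem, hippocampus, striatum, and cortex were −0.06, 0.05, −0.26, and −0.15. Slc1a6 differed by −0.64 (SE 0.153, adjusted p = 0.0129), with −0.21 in the cerebellum and 0.13, 0.46, 0.67, and 0.47 in the other regions. The Slc1a6 call was lost without 154Q-69, 154Q-75, WT-221, or WT-70 (edgeR adjusted p 0.0502 to 0.0525), which left 1 member, and without 154Q-AXH-217 there were 4. The other members did not pass this test, and 8 members in all had an unadjusted p under 0.05, which was not counted over all genes. Among those that missed the threshold, Slc9a3 had a difference of −0.63 (SE 0.194, edgeR adjusted p = 0.0711) and Dner of −0.37 (SE 0.124, adjusted p = 0.121), whereas Rgs8 had a difference of −0.10 (SE 0.181, adjusted p = 0.875) and Calb1 of −0.09 (SE 0.186, adjusted p = 0.894). In 154Q-AXH mice no member passed this test, where 0.288% of all genes did, with −0.28 for Fam107b (edgeR adjusted p = 0.498) and −0.37 for Slc1a6 (adjusted p = 0.452). An unadjusted p under 0.05 was found for 3 members, again not counted over all genes.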

How the data were processed

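RNA-seq libraries of polyA RNA were prepared from 5 brain regions of 12 mice, and the authors deposited STAR's counts per gene for each library, whole numbers without normalization. Reads had been trimmed (Trimmomatic 0.36) and aligned (STAR 2.7.2d) on GRCm38.p6 using GENCODE M18. Unstranded counts were used, since the first strand held 48.91% to 50.11% of the stranded counts, and 1 line for a human transgene (at most 53 counts) and the summary lines were left out. Gene positions and exon lengths were taken from GENCODE M21 on GRCm38 (54079 of 54232 genes).

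For each region, genes were filtered with filterByExpr, libraries were scaled by TMM, and the 3 genotypes were fitted in 1 model with edgeR 4.0.16 in R 4.3.3 (glmQLFit, glmQLFTest), with Benjamini-Hochberg adjustment over all genes tested and a threshold of 0.05. Each standard error is the log2 fold change over the root of its F value. WT regions, and the difference between cerebellar and other effects, were fitted over 20 and 59 libraries. CPM of WT regions use a scaling over all WT libraries and so differ slightly from CPM within a region. The scripts were tested on simulated data.

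Each library is 1 mouse, and the same mice give the 5 regions, so the mouse pairs regions. The median correlation of a WT mouse's deviations between regions was −0.0178 to 0.0265. All 26 members are named. From the other gene lists the 4 genes with the lowest adjusted p in 154Q cerebellum are named, with markers a result turns on (Gnaq, Neurod1, and Gdf10, among others, were named after their values were seen). A few genes covered by this rule are not reported here. The members and lists were chosen with earlier results of these data known. Alternatives were DESeq2 1.42.0, edgeR with DESeq2's size factors, all genes kept without the low-count filter, fits of 2 genotypes, the mouse number series, Xist, or Ttr as covariates, WT mice of the same number series only, counts of 1 strand, the mouse as a block, disputed cortical libraries exchanged or left out, each library left out, and, added after the data were seen, an index of short genes as a covariate.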

Additional observations from a re-analysis of the deposited data

Results flagged for a closer look

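In the cerebellum, each member's lowest and highest library of a genotype was compared with the rest of its group of 4. Gng13 stood high in 154Q-AXH-218 (12.2 CPM, against 8.52 to 9.02 CPM in the other 154Q-AXH libraries), a gap of 0.84 of the group's range. Skor2 stood high in WT-221 (16.7 CPM, against 15.2 to 15.3 CPM), a gap of 0.904 of the range. Chance alone sets apart about 1 in 20 such groups, or 3.9 of the 78 groups examined, and 2 were found.

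The cerebellar change in 154Q mice differed from the mean change of the other 4 regions for Fam107b (difference of log2 fold changes −0.56) and Slc1a6 (−0.639) in edgeR's test of the difference itself (adjusted p = 0.00482 and 0.0129). Slc1a6 fell in the cerebellum and rose in the cortex of 154Q mice.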

How the results depend on the processing

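In 154Q cerebellum 13 to 22 members were called under every setting tried (15 to 18 with 1 library left out). The 13 came with the WT mice of the same series only (372 genes called in all) and the 22 with the short-gene index (1653 genes). In 154Q-AXH cerebellum, 15 members were called with DESeq2, 13 with the number series added as a covariate, 15 with the WT mice of the same series only (Gng13 rising among them), 15 with the short-gene index, and 4 to 10 with 1 library left out. DESeq2, the series covariate, the same-series WT mice, and the short-gene index called 1057, 1475, 2468, and 1234 of all genes. In the main fit 236 fell and 226 rose. Between the mutants, 4 members were called with DESeq2, 2 without the filter on low counts, 2 with only these genotypes, 1 with the number series, 2 with Ttr, 3 with the short-gene index, and 0 to 1 with 1 library left out. In the same order, the settings other than leaving out a library called 124, 29, 54, 80, 18, and 35 of all genes. Hippocampal calls were 1 in 154Q mice with the number series or the WT mice of the same series (1 to 4 with 1 library left out) and in 154Q-AXH mice 2 with DESeq2, 0 with the number series or Xist, and 0 to 1 with 1 library left out. Over all genes these settings called 675 and 73 in 154Q mice, and 962, 111, and 183 in 154Q-AXH mice. Striatal calls were 1 in 154Q mice with the number series (1 to 5 with 1 library left out) and in 154Q-AXH mice 3 with DESeq2, 2 without the filter or with Xist, 0 with the WT mice of the same series, and 1 to 3 with 1 library left out. Over all genes these settings called 234 in 154Q mice, and 598, 230, 200, and 0 in 154Q-AXH mice. Cortical calls were 1 in 154Q mice with the WT mice of the same series and in 154Q-AXH mice 1 with the number series, 2 without the disputed libraries, and 2 to 5 with 1 library left out. Over all genes these settings called 328 in 154Q mice, and 571 and 800 in 154Q-AXH mice. The difference between cerebellum and other regions in 154Q mice held 1 to 4 members with 1 mouse left out. The cause of these moves was not tested. Log2 fold changes in 154Q-AXH cerebellum turned positive for Gng13 (0.765 with the series, 0.764 with the WT mice of the same series, −0.591 to 0.246 with 1 library left out, the highest without WT-70), Pcp2 (0.077 and 0.077), and Pcp4 (0.219, 0.218, and −0.625 to 0.087 with 1 library left out, the highest without WT-70), and Kit in 154Q cerebellum lay from −0.098 to 0.009 with 1 library left out, above 0 without 154Q-71. With the mouse as a block, which uses the pairing of regions by mouse, 26 members were higher in WT cerebellum than in the mean of the other regions and 2 (154Q) and 0 (154Q-AXH) differed between cerebellum and other regions, so the block changed no number of calls. Of 1556 alternative log2 fold changes, 1355 kept their direction and side of the threshold, 135 lost the threshold, 57 gained it, and 9 changed sign. Striatal and cortical libraries were shallower than the others, which limits the members at a few counts there.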
